A study of Homo sapiens with 26 samples.

Results

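The genes of the constitutive proteasome were followed during exposure to TGF-beta 1 in A549, a human cell line from a lung adenocarcinoma. Members were the genes whose single symbol on the array begins with PSMA, PSMB, PSMC, PSMD, PSME, PSMF or PSMG, without the immunoproteasome subunits PSMB8, PSMB9 and PSMB10, and each gene was read from whichever of its probe sets was brightest on average. This gave 41 of the 19577 genes with 1 symbol, from 77 probe sets, and 23 members had several probe sets. The 26 RNA samples were each hybridised to an Affymetrix HG-U133 Plus 2.0 array. Per the labels, all cells were first starved of serum for 24 h. One group was left untreated, and the others received TGF-beta 1 protein at 5 ng/mL. Early groups were taken at 0.5, 1, 2 and 4 h, and late groups at 8, 16, 24 and 72 h. The 2 h group has 2 arrays and every other group has 3. No untreated cells kept for the same times are among the labelled groups, so time in culture and treatment cannot be told apart, and every comparison with untreated cells shares the same 3 untreated arrays.

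The 26S proteasome is the protease complex that degrades ubiquitin-tagged proteins in all cells. Its 20S core is a barrel with outer rings of alpha subunits, which gate the entrance, and inner rings of beta subunits, of which PSMB5, PSMB6 and PSMB7 carry the catalytic sites. The 19S regulatory particle sits on the barrel, with a base of ATPases (PSMC genes) and non-ATPase subunits that unfold and feed in the substrate, and a lid that removes ubiquitin. PA28, built from PSME1 and PSME2, is an alternative cap that is induced by interferon gamma together with the immunoproteasome subunits and is linked to the production of peptides for antigen presentation.

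All values are on the log2 scale, where a probe set with no signal lies at 6.64 and the median of each array at 7.96. A gene was tested if it lay above that median on at least 2 arrays, which held for 39 of the 41 members and for 14929 genes in all. The untested members were PSMA8, an alpha subunit known from testis, with values from 6.52 to 8.06, and PSMAL, which is named for prostate-specific membrane antigen and is no proteasome subunit. PSMC3IP, a cofactor of meiotic recombination and no proteasome subunit, was tested and passed at no time. The 38 tested genes of the proteasome proper had means of 10.92 to 13.98 over all arrays, far above the array median. Their residual SD had a median over the 39 tested members of 0.102, against 0.205 over all genes tested, so that smaller changes passed the test here than in a typical gene. The epithelial markers KRT8 and KRT18 had untreated means of 14.57 and 15.21 and KRT7 one of 13.57. Of 8 listed leukocyte, endothelial and fibroblast markers, PTPRC, CDH5 and COL3A1 were too dim to test, and CD3E, PECAM1, PDGFRA and THY1 were tested with untreated means of 7.57 to 8.21 and passed at neither 24 nor 72 h. LYZ, a lysozyme gene also expressed by some epithelia, had a mean of 9.15 in untreated cells. Its untreated arrays were split, at 7.78, 9.92 and 9.76, the first of them below the array median. LYZ had a change of -1.68 at 24 h (limma, adjusted p = 0.00488) and of -3.07 at 72 h (adjusted p = 8.23e-06). Its part in the results was not tested. Among the epithelial markers, the cadherin CDH1 had a change of -3.34 at 24 h and of -4.26 at 72 h, EPCAM one of -2.72 KRT8 one of -0.33 and KRT18 one of -0.27 at 72 h. KRT7 was higher, by 0.74 at 24 h and 0.61 at 72 h. SMAD7, a feedback inhibitor induced by TGF-beta, rose by 2.53 and 2.63.

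The changes that passed the test were mostly small, mixed in direction and first seen at 4 h, with 1 member that rose far more than the rest, PSMD2, and a pair that fell most, PSME2 and PSME1. Over the whole time course, 19 of the 39 tested members varied by limma's moderated F test (adjusted p under 0.05), beside 47.6% of all genes tested, so the share of members was near the background. All 7 tested genes of the alpha ring varied, as did 2 of 7 in the beta ring and 1 of 5 base ATPases. So did 5 of 11 non-ATPase subunits, 2 of 3 base assembly chaperones and 2 of 4 activators. PSMF1 and PSMC3IP did not.

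At 0.5, 1 and 2 h no member passed limma's test, while 0.134%, 0.543% and 3.02% of all genes did. No member had an unadjusted p under 0.05 at these times either, and the smallest was 0.0604, 0.0636 and 0.0516. The replicate block and the other fits tried also gave 0 there. At 4 h PSMD10 alone was lower, beside 3.11% of all genes lower and 6.04% higher. This call (log2 -0.23, limma, adjusted p = 0.032) was lost without 4 h replicate 1 (0.11) or 2 (0.104), without untreated replicate 1 (0.172) or 3 (0.0658), with no intensity trend (0.0538) and with only the groups compared (0.324). At 8 h 6 members were lower and 0 higher, against 11.6% of all genes lower and 11.4% higher. They were PSMA1, PSMA2, PSMA3 and PSMA5 of the alpha ring and the assembly chaperones PSMD5 and PSMD10. With the experiment number as a replicate block, 2 members passed at 4 h and 10 at 8 h. The share of all genes under the block was not computed.

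At 16 h 2 members were higher, PSMA7 and PSMD2, and 13 lower, beside 15.1% and 18.5% of all genes. The 13 were PSMA1, PSMA2, PSMA3, PSMA5, PSMB2, PSMB5, PSMB6, PSMC2, PSMC5, PSMD5, PSMD9, PSMD10 and PSME2. Without untreated replicate 1 the 15 calls became 6, and without 16 h replicate 3 they became 7. At 24 h PSMA7 and PSMD2 were higher and 7 members lower (PSMA2, PSMA3, PSMA5, PSMB2, PSMC5, PSMD5 and PSME2). Beside them, 15.2% of all genes were higher, 2987 of the 14929 tested were lower and 35.2% changed either way. Leaving out untreated replicate 1 made the 9 calls of members 5.

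At 72 h 7 members were higher (PSMA4, PSMA7, PSMD1, PSMD2, PSMD6, PSMD10 and PSMD12) and 9 lower (PSMA3, PSMB2, PSMB5, PSMC5, PSMD8, PSME1, PSME2, PSME3 and PSMF1), beside 18.2% and 19.9% of all genes. With the replicate block, 2 members were higher and 11 lower at 24 h, 7 higher and 14 lower at 72 h, and 24 varied over the time course. No share of all genes was computed under the block, so these counts have no background beside them. The split between directions also depended on scaling. With each array centred on its median over the genes tested, 6 members were higher and 3 lower at 24 h, and 7 higher and 5 lower at 72 h. A second quantile normalization gave 3 higher and 6 lower at 24 h. Shares of all genes were not computed with centring or the second quantile normalization either. Of the calls in the deposited scaling, 5 of 9 at 24 h and 12 of 16 at 72 h were kept in both of these scalings.

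The median change of the 39 tested members was -0.08, -0.03, -0.03 and -0.01 at the early times from 0.5 to 4 h in turn, and -0.15, -0.14, -0.08 and -0.07 at the late times from 8 to 72 h. Over all genes tested it lay between -0.05 and 0.00 throughout. At 0.5 h, when no member passed, 36 of the 39 lay below 0, beside 7262 of the 14929 genes tested. At 8 h 31 of the 39 did, beside 8116 of all, and at 72 h 24 did, beside 7815. Every one of these shifts is measured from the same 3 untreated arrays. On untreated replicate 1 the members lay 0.11 above their means over all arrays in the median, against 0.02 for all genes. Some treated arrays lay as far off, with 0.11 for 4 h replicate 2, -0.11 for 8 h replicate 3 and -0.14 for 16 h replicate 3. Over the alternatives tried, the members' median ran from -0.11 to -0.05 at 0.5 h, from -0.16 to -0.11 at 8 h and from -0.08 to -0.02 at 72 h. The part of untreated replicate 1 in the shifts was not tested. Asking also for a change of at least 1.5-fold left PSMD2 and PSME2 at 16 h and at 72 h, while 20.6% and 23.6% of all genes passed that rule.

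**Figure D1:**
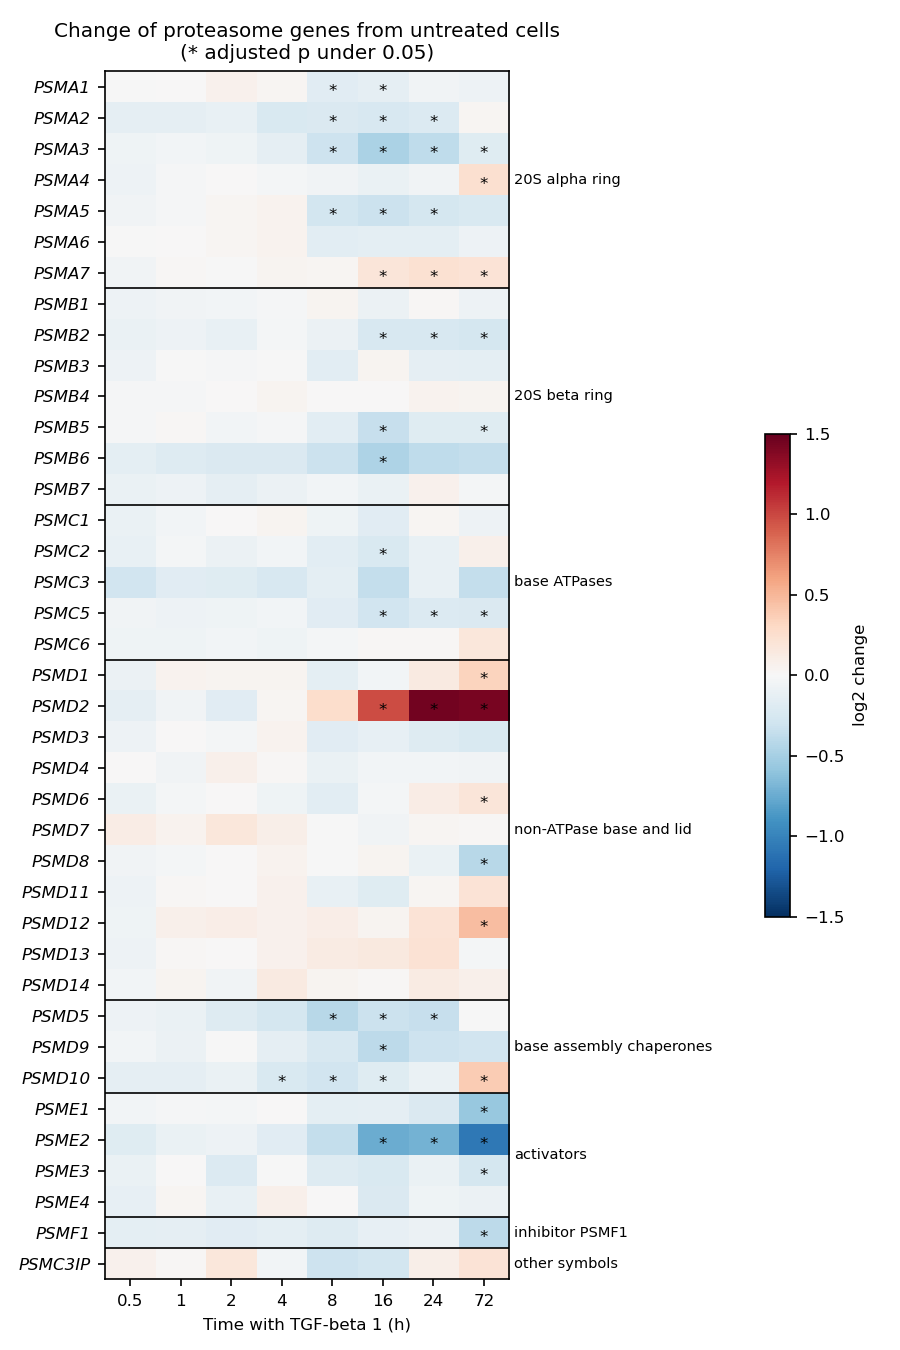
Log2 change from untreated cells of the 39 tested members (rows, grouped by role) at the 8 times with TGF-beta 1 (columns, in h), with red for higher and blue for lower and an asterisk where the adjusted p was under 0.05. PSMD2 is the darkest red row from 16 h on, at 0.98, 1.45 and 1.42, and PSME2 the darkest blue, at -0.74, -0.71 and -1.07.

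Promoter windows are shown for PSMD2, which rose most, and for PSME1 and PSME2, which fell most at 72 h. They come from the RefSeq promoter table (build GRCh38.p14), which gives 250 bases before to 50 after each annotated start and matched 35 of the 41 members with 43 windows. Capitals mark matches on either strand to TGACNNNGC (the core of an antioxidant response element), an interferon-stimulated response element (GAAA, any pair of bases, GAAA) or TGANTCA (an AP-1 site). The windows are PSMD2 at chr3:184298991-184299290 and chr3:184300331-184300630, both on the + strand, PSME1 at chr14:24135944-24136243 on the + strand and PSME2 at chr14:24146561-24146860 on the - strand.
PSMD2 first window: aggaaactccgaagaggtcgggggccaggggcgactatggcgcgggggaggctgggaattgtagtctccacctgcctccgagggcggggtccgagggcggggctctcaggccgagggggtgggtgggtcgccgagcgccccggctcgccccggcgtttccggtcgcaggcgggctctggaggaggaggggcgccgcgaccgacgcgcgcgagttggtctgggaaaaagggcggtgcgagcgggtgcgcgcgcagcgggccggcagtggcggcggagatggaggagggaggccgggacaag
PSMD2 second window: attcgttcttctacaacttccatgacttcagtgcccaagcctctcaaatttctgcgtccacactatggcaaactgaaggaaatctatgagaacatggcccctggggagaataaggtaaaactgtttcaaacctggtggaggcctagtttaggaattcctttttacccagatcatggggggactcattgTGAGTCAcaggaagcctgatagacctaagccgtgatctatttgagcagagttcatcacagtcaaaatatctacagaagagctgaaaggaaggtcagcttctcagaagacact
PSME1: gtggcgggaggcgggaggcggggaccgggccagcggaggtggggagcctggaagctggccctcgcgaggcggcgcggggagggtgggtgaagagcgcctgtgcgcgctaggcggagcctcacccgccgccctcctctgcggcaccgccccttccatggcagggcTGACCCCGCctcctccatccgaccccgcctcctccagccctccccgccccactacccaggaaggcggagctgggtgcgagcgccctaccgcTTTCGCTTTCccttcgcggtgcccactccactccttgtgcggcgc
PSME2: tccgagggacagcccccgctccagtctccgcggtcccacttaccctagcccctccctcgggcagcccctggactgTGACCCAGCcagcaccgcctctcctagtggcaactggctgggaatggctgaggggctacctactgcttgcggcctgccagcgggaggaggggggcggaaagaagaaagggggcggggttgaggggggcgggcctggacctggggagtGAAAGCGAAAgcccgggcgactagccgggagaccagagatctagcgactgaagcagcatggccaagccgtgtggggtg
The first PSMD2 window held none of these motifs and the second held TGANTCA at base -62 from the start. PSME1 held TGACNNNGC at -86 and the interferon-stimulated element, on the opposite strand, at 6. PSME2 held TGACNNNGC at -175 and the interferon-stimulated element at -28. TGACNNNGC stood in 25.6% of the members' windows and in 13.3% of the 35116 windows of all genes, the interferon-stimulated element in 9.3% and 3.57%, TGANTCA in 6.98% and 7.71%, CCAAT in 44.2% and 34.6%, and the SMAD palindrome GTCTAGAC in 0 of the members' 43 and in 0.202% of all. No motif overlapped another in the capitals shown, and a match is a description of these letters only.

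In the alpha ring, PSMA3 and PSMA7 moved in opposite directions. PSMA3 had values of 13.60, 13.53 and 13.58 on the untreated arrays, 13.18, 13.31 and 13.30 at 8 h, 13.12, 12.99 and 13.17 at 16 h, and 13.37, 13.38 and 13.42 at 72 h. All arrays of 8, 16 and 72 h lay below all untreated arrays, lowest at 16 h. PSMA3 fell by 0.48 ± 0.06 (SE; limma, adjusted p = 3.6e-06) at 16 h and by 0.38 at 24 h (adjusted p = 5.77e-05). Its other probe sets averaged 7.97 and 8.07, close to the array median, and with the mean of all its probe sets in place of the brightest the adjusted p at 16 h was 0.0746. As this is bulk RNA, fewer cells that express a gene and less RNA per cell cannot be told apart.

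PSMA7 had 13.70, 13.71 and 13.75 on the untreated arrays, 13.99, 13.94 and 13.93 at 24 h and 13.93, 13.999 and 13.84 at 72 h. Both treated groups lay above the untreated one without overlap. The rise was 0.23 ± 0.06 at 24 h (limma, adjusted p = 0.00218) and 0.20 ± 0.06 at 72 h (adjusted p = 0.00645), and was 0.0585 in adjusted p at 24 h without the 3 arrays whose names carry an r. A second PSMA7 probe set, also above the median on all arrays, rose by 0.38 at 72 h.

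PSMA4 changed late. Its untreated arrays read 13.64, 13.58 and 13.77, its 24 h arrays 13.55, 13.74 and 13.56 and its 72 h arrays 13.92, 13.86 and 13.93. The 72 h arrays lay above all the others of these groups, by 0.24 ± 0.06 over untreated (limma, adjusted p = 0.00269). PSMA5 read 12.56, 12.46 and 12.73 on the untreated arrays and 12.19, 12.43 and 12.17 at 16 h. The groups did not overlap, and the fall of 0.32 ± 0.09 (adjusted p = 0.0104) was a call that was lost without untreated replicate 3 (0.0689) or 16 h replicate 3 (0.0521).

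Of the catalytic beta subunits, PSMB5 and PSMB6 were lower at 16 h and PSMB7 passed at no time. PSMB5, with the chymotrypsin-like site, read 13.03, 13.15 and 13.05 on the untreated arrays and 12.76, 12.68 and 12.75 at 16 h, without overlap. It fell by 0.34 ± 0.07 at 16 h (limma, adjusted p = 0.000722), and its change at 24 h was -0.18 (adjusted p = 0.0613). Its call at 72 h (-0.18, adjusted p = 0.0485) was lost when any single array of untreated cells, or 72 h replicate 1 or 3, was left out, with adjusted p from 0.0544 to 0.194.

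PSMB6, with the caspase-like site, spread widely, with 13.11, 12.65 and 12.67 on the untreated arrays and 12.51, 12.48 and 12.03 at 16 h. Its fall of 0.47 ± 0.16 at 16 h (limma, adjusted p = 0.0308) was lost without untreated replicate 1 (0.179) or 16 h replicate 3 (0.183). By the F test PSMB6 did not vary over the time course (adjusted p = 0.309). PSMB7, with the trypsin-like site, read 13.72, 13.54 and 13.56 on the untreated arrays and 13.67, 13.54 and 13.54 at 72 h. The groups overlapped, and the change was -0.02, with a 95% interval from -0.15 to 0.10. A second PSMB7 probe set, dimmer at a mean of 8.85 but above the median on all arrays, read 0.28 higher at 72 h. PSMB2, a beta subunit without a catalytic site, went from 13.09, 12.98 and 12.85 to 12.68, 12.73 and 12.71 at 72 h (log2 -0.27, adjusted p = 0.0119), a call lost without untreated replicate 1 (0.0731), while a second probe set above the median on all arrays read 0.17 higher, so its direction is uncertain.

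The immunoproteasome genes, which are not members, also fell. PSMB9 fell by 1.92 ± 0.33 at 72 h (limma, adjusted p = 5.62e-05) and PSMB10 by 1.61 ± 0.12 (adjusted p = 8.17e-10), and PSMB8 was too dim to test. PSMB9 read 9.94, 8.95 and 9.81 on the untreated arrays. At 72 h it read 7.94, 7.94 and 7.07, all below the array median of 7.96. The differences between the immunoproteasome genes and PSMB5, PSMB6 or PSMB7 were not tested.

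**Figure D2:**
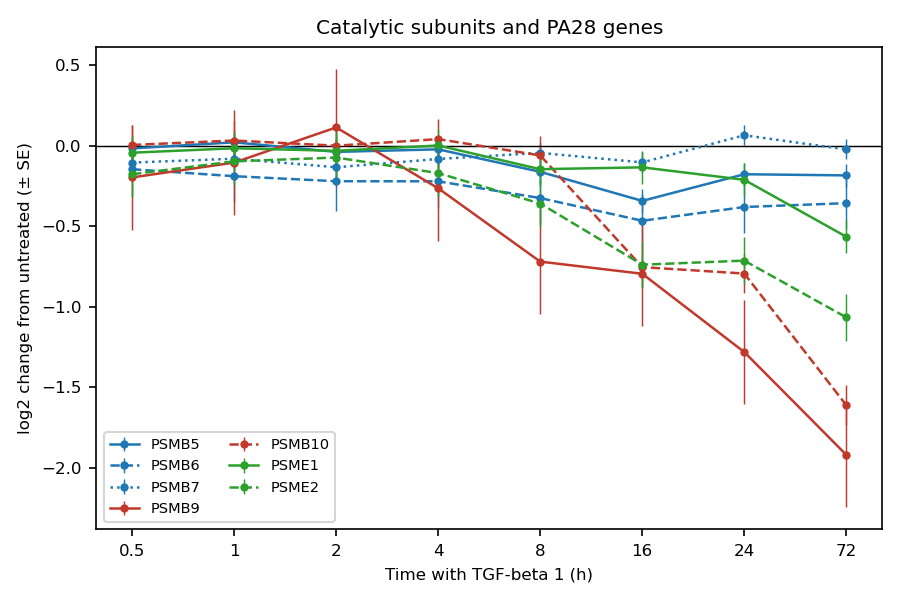
Log2 change from untreated cells, with its SE as bars, of the catalytic subunits PSMB5, PSMB6 and PSMB7 (blue), the immunoproteasome subunits PSMB9 and PSMB10 (red) and the PA28 genes PSME1 and PSME2 (green), over the time with TGF-beta 1 in h. At 72 h PSMB7 stood at -0.02, PSME1 at -0.57, PSME2 at -1.07 and PSMB9 at -1.92.

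Of the ATPases, PSMC5 fell by 0.29 ± 0.07 at 16 h (limma, adjusted p = 0.00286), from 12.98, 12.90 and 12.88 on the untreated arrays to 12.68, 12.65 and 12.57, without overlap. PSMC2 read 13.22, 13.33 and 13.16 on the untreated arrays and 13.01, 12.99 and 13.03 at 16 h. It was lower by a narrow margin (log2 -0.23, adjusted p = 0.0437). Each array of the 2 groups, except untreated replicate 3, ended this call when left out, with adjusted p from 0.07 to 0.162. By the F test PSMC2 did not vary over the time course (adjusted p = 0.108). PSMC1, PSMC3 and PSMC6 passed at no time. PSMC4 shares its probe set with another symbol and is no member.

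PSMD2, the large scaffold subunit of the base that also binds ubiquitin-like domains, carried the largest change of all tested members. It read 12.29, 12.31 and 12.28 on the untreated arrays, 12.61, 12.66 and 12.40 at 8 h, and 13.41, 13.30 and 13.12 at 16 h. It then read 13.79, 13.91 and 13.53 at 24 h and 13.64, 13.82 and 13.69 at 72 h. Every array from 8 h on lay above every untreated array, although the 8 h change did not pass the test (0.26 ± 0.10, limma, adjusted p = 0.0614). With each array centred on its median, the 8 h change of PSMD2 was 0.28 and passed (adjusted p = 0.0411). The rise was 0.98 ± 0.10 or 1.97-fold at 16 h (adjusted p = 8.18e-08), 1.45 ± 0.10 or 2.72-fold at 24 h (adjusted p = 2.18e-10) and 1.42 ± 0.10 or 2.68-fold at 72 h (adjusted p = 1.82e-10). Paired by the labelled experiment number, the rise at 72 h ranged from 1.35 to 1.51, higher in 3 of 3. That pairing is uncertain for untreated arrays 2 and 3, as described under the processing. Between 24 and 72 h it changed by -0.02, with an interval from -0.23 to 0.18. It rests on 1 probe set, and all 3 calls held in every alternative tried.

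Its partner scaffold PSMD1 read 12.37, 12.71 and 12.56 on the untreated arrays and 12.85, 12.97 and 12.84 at 72 h, without overlap. It rose by 0.34 ± 0.08 at 72 h (limma, adjusted p = 0.00251), but a second probe set of PSMD1, equally above the median, read -0.06. PSMD12, a lid subunit, read 11.99, 11.79 and 12.06 on the untreated arrays and 12.39, 12.44 and 12.39 at 72 h, without overlap. It rose by 0.46 ± 0.09 (adjusted p = 0.000197), and its second probe set by 0.34. PSMD8, also of the lid, went the other way, from 12.93, 12.76 and 12.75 on the untreated arrays to 12.43, 12.46 and 12.31, a fall of 0.42 ± 0.11 (adjusted p = 0.00314). Of the other non-ATPase genes of base and lid, PSMD3, PSMD4, PSMD7, PSMD11, PSMD13 and PSMD14 passed at no time.

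**Figure D3:**
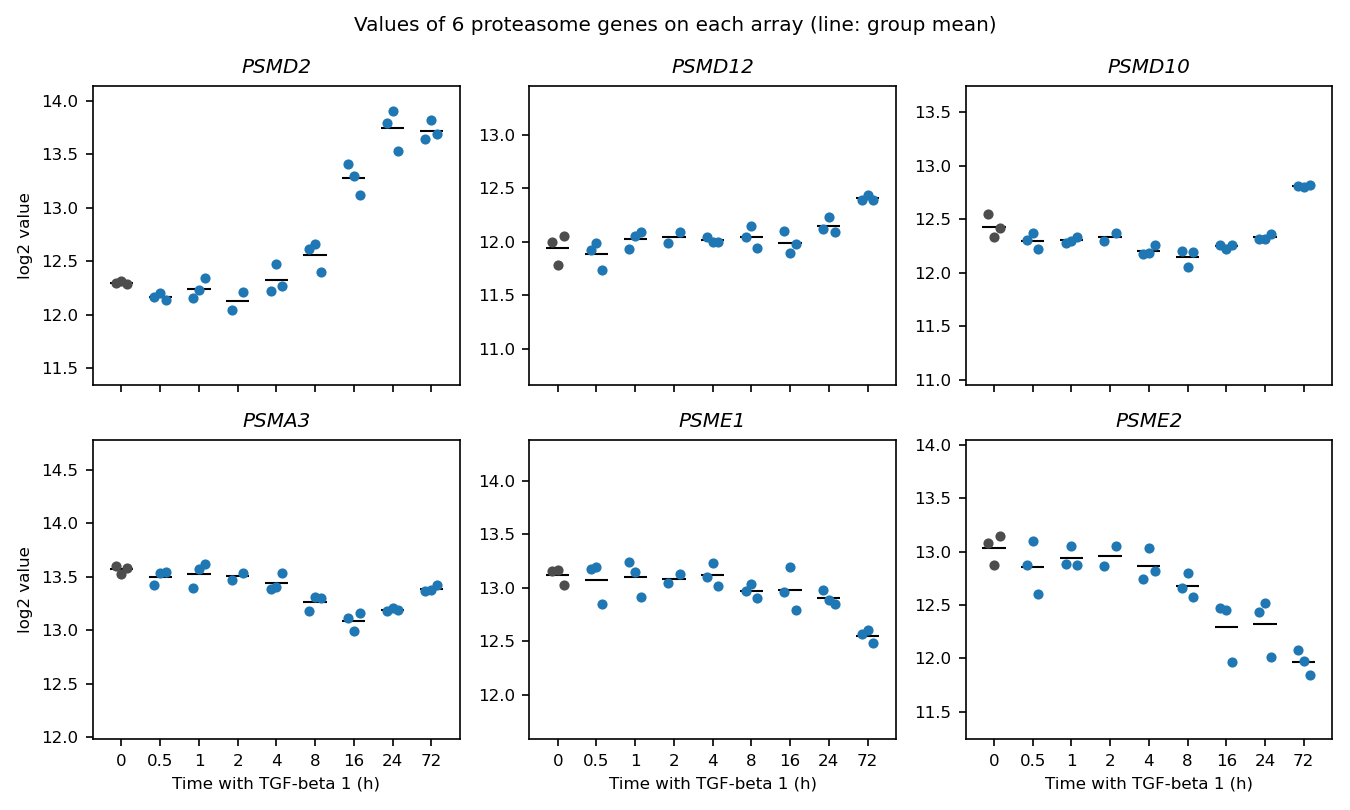
Log2 value of 6 members on each array (points; untreated grey, treated blue) and the group mean (line) over the time with TGF-beta 1 in h, with the same height of scale in each panel. PSMD2 climbs from 12.29 to 13.79 on the arrays of experiment 1 between untreated cells and 24 h, and PSMD10 dips at 8 h and stands at 12.82, 12.80 and 12.82 at 72 h.

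The chaperones that assemble the base, PSMD5, PSMD9 and PSMD10, were each lower at 16 h. At that time PSMD10 (log2 -0.19, limma, adjusted p = 0.0341) lost its call without any single 16 h array (0.0583 to 0.0917), without untreated replicate 1 (0.182) or 3 (0.0568), and with arrays centred (0.127). PSMD5 (log2 -0.33, adjusted p = 0.0141) lost it without untreated replicate 1 (0.0574). The 16 h arrays of PSMD9 (log2 -0.39, adjusted p = 0.0222) overlapped the untreated ones. A second PSMD9 probe set, above the median on all arrays, read -0.004 at 16 h. By the F test PSMD9 did not vary over the time course (adjusted p = 0.0976). PSMD10, also called gankyrin, read 12.55, 12.34 and 12.42 on the untreated arrays, 12.20, 12.06 and 12.19 at 8 h, 12.32, 12.32 and 12.37 at 24 h and 12.82, 12.80 and 12.82 at 72 h. The 8 h arrays lay below and the 72 h arrays above the untreated ones, and the 24 h arrays overlapped them. It fell by 0.28 ± 0.07 at 8 h (limma, adjusted p = 0.00316) and rose by 0.38 ± 0.07 at 72 h (adjusted p = 8.04e-05). Its second probe set was 0.43 higher at 72 h. PSMD5 read 11.57, 11.43 and 11.48 on the untreated arrays, 11.19, 11.05 and 11.01 at 8 h and 11.42, 11.54 and 11.48 at 72 h, so that the 8 h arrays alone of these lay apart. It fell by 0.41 ± 0.10 at 8 h (adjusted p = 0.00433), and at 72 h its change was -0.01 with an interval from -0.22 to 0.20.

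Against 24 h directly, 4 members were higher at 72 h and 1 lower, beside 4.62% and 4.37% of all genes. PSMD10 was higher by 0.48 ± 0.07 (limma, adjusted p = 6.29e-05) and PSMA4 by 0.29 ± 0.06 (adjusted p = 0.00395). PSMD5 and PSMA2 were the other higher ones, and PSME1 the lower one. The replicate block gave 9 calls, 5 higher and 4 lower, and centring each array gave 2 higher and 3 lower. Neither has a share of all genes beside it, as none was computed. Leaving out 24 h replicate 1 or any single 72 h array left 2 of the 5 calls, and leaving out 24 h replicate 2 left 3.

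Of the 4 activators, 3 were lower at 72 h. PSME2, the beta subunit of PA28, read 13.08, 12.88 and 13.15 on the untreated arrays, 12.47, 12.46 and 11.96 at 16 h, 12.43, 12.52 and 12.02 at 24 h and 12.08, 11.98 and 11.85 at 72 h. All of these treated arrays lay below all untreated ones. The change at 16 h was -0.74 ± 0.14 (limma, adjusted p = 0.000316). At 24 h the change was -0.71 ± 0.14 (adjusted p = 0.000424), and 72 h brought -1.07 ± 0.14, a 2.10-fold drop (adjusted p = 3.13e-06). Without the 3 arrays marked with r, the adjusted p at 24 h was 0.0597.

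PSME1, its alpha partner, followed later, with 13.16, 13.17 and 13.03 on the untreated arrays and 12.57, 12.60 and 12.48 at 72 h, without overlap. It fell by 0.57 ± 0.10 (limma, adjusted p = 0.000111), and its change at 24 h was -0.21 (adjusted p = 0.112). PSME3, the nuclear PA28 gamma, was lower at 72 h (log2 -0.26, adjusted p = 0.0348). Its 3 further probe sets, above the median on all arrays, read only -0.09, -0.05 and -0.06. With each array centred on its median PSME3 did not pass at 72 h, and by the F test it did not vary over the time course (adjusted p = 0.101). PSME4, which encodes PA200, passed at no time. PSMF1, the proteasome inhibitor PI31, read 12.69, 12.62 and 12.68 on the untreated arrays and 12.30, 12.33 and 12.17 at 72 h. This was a fall of 0.40 ± 0.11 (adjusted p = 0.00627), with a second probe set at -0.31. By the F test PSMF1 did not vary over the time course (adjusted p = 0.186).

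**Figure D4:**
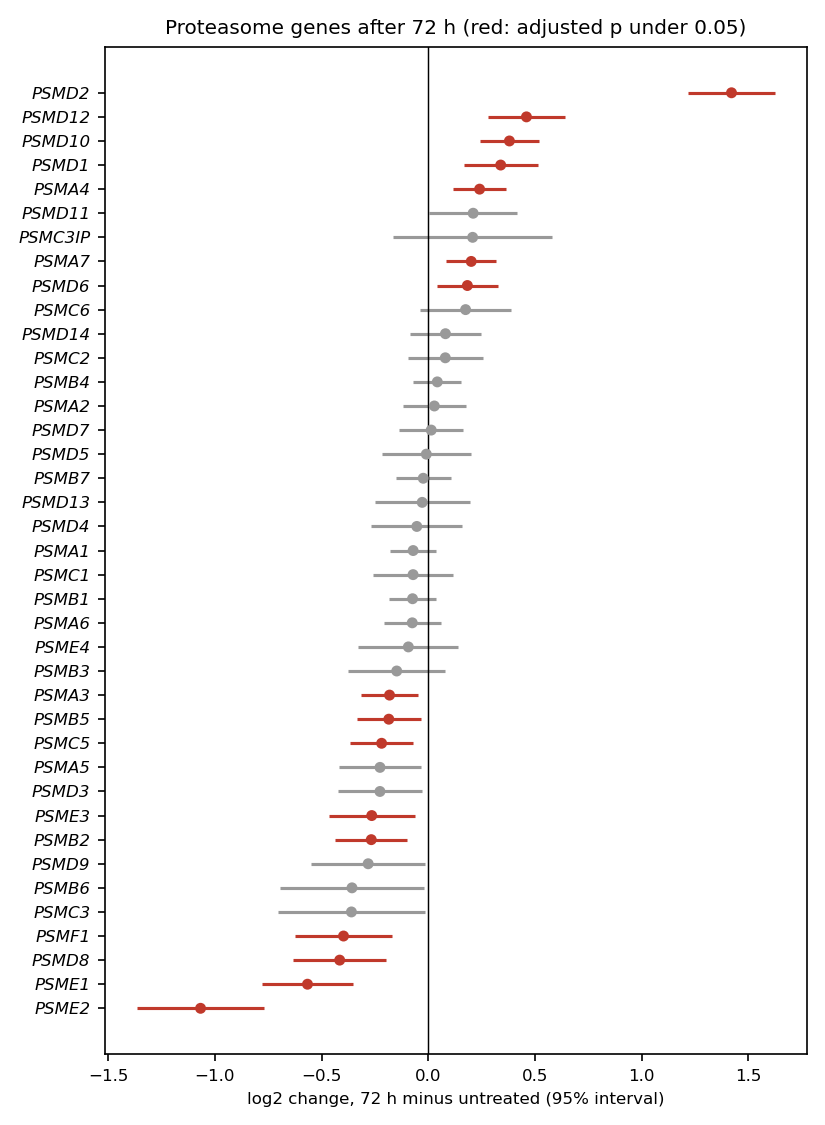
Log2 change at 72 h against untreated cells of each tested member (points) with its 95% interval (bars), ordered by size, with red where the adjusted p was under 0.05. PSMD2 at 1.42 and PSME2 at -1.07 stand at the ends, and the 14 other genes that passed lie between -0.57 and 0.46.

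Of the 16 members called at 72 h, 7 had a further probe set above the median on all arrays, and in 5 of these every such probe set had the same sign. The exceptions were PSMB2 and PSMD1. The ratio of 3' to 5' actin signal, a sign of RNA integrity, had a mean of 1.10 in untreated cells and means of 1.02, 1.00 and 1.01 after 16, 24 and 72 h. Its part in these changes was not tested.

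Beyond the members, 4 chaperones of core assembly and 25 genes of the ubiquitin and proteasome pathway were listed, of which 4 and 24 were tested. In the pathway list 3 genes were higher and 4 lower at 24 h, and 5 higher and 4 lower at 72 h, with a median of 0.02 at 72 h. These are 29.2% and 37.5% of the list, beside 35.2% and 38.1% of all genes changed either way, so neither share exceeded the background. USP14, a deubiquitinase of the regulatory particle, rose by 0.55 ± 0.07 at 72 h (limma, adjusted p = 3.41e-06) and the ligase UBE3C by 0.50 ± 0.08 (adjusted p = 4.87e-05). NFE2L1, a transcription factor that drives proteasome genes, was 0.28 higher at 24 h (adjusted p = 0.0408) and did not pass at 72 h, while NFE2L2, the factor of the antioxidant response, fell by 0.78 ± 0.13 at 72 h (adjusted p = 5.99e-05). Also past the threshold at 72 h were AKIRIN2 (0.61), a factor in nuclear import of proteasomes, UBQLN1 (0.21), PAAF1 (-0.42) and ZFAND5 (-0.27). At 24 h USP14 (0.36), the ubiquitin-activating enzyme UBA1 (0.44), PAAF1 (-0.54), NFE2L2 (-0.84) and RAD23B (-0.78) were among those that passed besides NFE2L1. Of the core chaperones, which the array lists under older symbols that the rule does not catch, PSMG4 was lower at 24 h (log2 -0.44) and 72 h (log2 -0.65). POMP, the core maturation factor in the pathway list, passed at neither time.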

How the data were processed

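The deposited table holds log10 values for each probe set, which per the file headers are log10(max(x+50,0)+50) of trimmed perfect-match minus mismatch differences from the program readaffy, quantile-normalized between arrays. The deposited quality table gives a dark factor, a score printed by that program, and the actin 3' to 5' ratio. The values were converted to log2. The added offset understates changes of weak genes. A fit with limma 3.58.1 in R 4.3.3 (lmFit, eBayes with intensity trend) took the 26 arrays as 9 groups, leaving 17 degrees of freedom for the residual, with Benjamini-Hochberg adjustment over 14929 genes at 0.05. The members, lists and roles were chosen with earlier results of these data known. Members described singly were the 2 of each role with the smallest F test p, the catalytic subunits, and the 5 largest rises and falls past the threshold at 24 and 72 h. The labels number arrays by experiment, and nothing says whether these were separate cultures. Deviations from group means of same-numbered treated arrays had a median correlation of 0.18, against -0.09 for other pairs. As deviations sum to 0 within a group, these values are tied to each other and are no independent contrast. Untreated array 2 went with treated arrays numbered 3 (0.31) and not 2 (-0.20). Untreated array 3 went with neither number (0.03 with 2 and -0.02 with 3). In the order of the array names, untreated array 2 stands directly before the treated arrays numbered 3. Untreated array 3 stands directly before those numbered 2. Whether these 2 numbers were exchanged was not tested, and the labels were kept as given. The number of arrays limits the precision. Normalization, filters, probe set choice, the fit, the block and each array in turn were varied. The fit was tested on simulated data. Some results of the listed genes that are not members are not reported here.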

Additional observations from a re-analysis of the deposited data

Results flagged for a closer look

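In 5 members the change from untreated cells differed between 24 and 72 h by limma's direct test of that difference. PSMD10 went from -0.10 to 0.38, a difference of 0.48 (adjusted p = 6.29e-05). PSMA4 went from -0.05 to 0.24, a difference of 0.29 (adjusted p = 0.00395). PSMD5 went from -0.35 to -0.01, a difference of 0.34 (adjusted p = 0.0362), and PSMA2 from -0.20 to 0.03, a difference of 0.23 (adjusted p = 0.0467). With each array centred on its median neither PSMD5 nor PSMA2 passed, and with the second quantile normalization PSMA2 did not. A second PSMA2 probe set, above the median on all arrays, read -0.37 at 24 h and -0.23 at 72 h. PSME1 went from -0.21 to -0.57, a difference of -0.35 (adjusted p = 0.0313). Without the 3 arrays marked with r, 2 of them at 24 h, only PSMD10 among these passed.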

How the results depend on the processing

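The calls of PSMD2 at 16, 24 and 72 h and of PSME2 at 16 and 72 h held in every alternative, 5 of 43 single-gene results. The alternatives include the 1.5-fold rule, which only the results of PSMD2 and PSME2 are large enough to meet. That rule alone ended the calls at 72 h of PSMA4, PSMA7, PSMD8, PSMD10, PSMD12, PSME1 and PSMF1. It alone also ended those of PSMB5 and PSMC5 at 16 h, PSMD5 at 8 h and PSMD10 for 72 against 24 h. PSMB2 turned direction when its probe sets were averaged, to 0.14, 0.050 and 0.045 at 16, 24 and 72 h. Shares of all genes were not computed for the alternatives, apart from the 1.5-fold rule at 16 and 72 h. Counts of members that passed moved by over 1.5 times as follows. With the replicate block they were 2 at 4 h, 10 at 8 h and 9 for 72 against 24 h, and the block ended no call of a gene described singly. With the pairing of untreated arrays 2 and 3 exchanged, chosen after seeing the data, they were 2 at 4 h, 13 at 8 h, 15 at 24 h and 11 for 72 against 24 h. At 4 h a stricter filter, centring and a second quantile normalization each gave 2, and the mean of probe sets or a preference against _x_ and _s_ sets gave 0. Without the intensity trend they were 0 at 4 h, 3 at 8 h and 3 for 72 against 24 h. With only the groups compared they were 0, 2, 5 and 4 at 4, 8, 16 and 24 h. Without the arrays marked with r, which leaves 1 array at 24 h that is assumed to vary like the other groups, they were 3 at 24 h and 1 for 72 against 24 h. At an adjusted p under 0.01 they were 0, 3, 5, 5 and 10 at 4, 8, 16, 24 and 72 h, and 2 for 72 against 24 h. With at least 1.5-fold, added after seeing the data, they were 0, 0, 2, 2 and 2, and 0 for 72 against 24 h. Leaving out 1 array gave 15 to 20 members over the time course, 0 to 0 at 0.5, 1 and 2 h, 0 to 2 at 4 h, 3 to 7 at 8 h, 6 to 14 at 16 h, 5 to 8 at 24 h, 12 to 16 at 72 h and 2 to 6 for 72 against 24 h. The lowest counts at 8, 16 and 24 h came without untreated replicate 1, and at 8 h also without untreated replicate 3.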

Other observations

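Of 12 coding genes within 100 kb of PSMD2, 9 were tested, and their changes at 72 h ran from -0.66 for ALG3 (limma, adjusted p = 0.00386) to 0.49 for CAMK2N2 (adjusted p = 0.0285), beside 1.42 for PSMD2. The initiation factor gene EIF4G1 had a change of -0.05 and the polymerase subunit gene POLR2H one of -0.41 (adjusted p = 0.00152). Of 19 coding genes within 100 kb of PSME1, 14 were tested, PSME2 among them. At 72 h IPO4 had a change of -0.66 (adjusted p = 0.000213), DCAF11 one of -0.66 (adjusted p = 0.00695) and PCK2 one of -0.56 (adjusted p = 0.00342), and the other neighbours apart from PSME2 did not pass. The same 3 genes lie within 100 kb of PSME2.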
